A study of Mus musculus with 2 samples.

Results

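The regions described here are 188 broad promoter intervals of open chromatin, each holding 4 or more accessibility summits, in primary mouse hematopoietic stem cells. They were selected on measured values: an interval had to be listed on 4 or more lines of the replicate 1 peak list (the same start and end, a different summit on each line), to overlap an interval of the replicate 2 list by at least 1 bp, and to have a summit within 1000 bp of a transcription start site (TSS) of a protein-coding gene. Replicate 1 held 25141 intervals on 34499 lines, and 8934 of these were promoter intervals shared with replicate 2. The members were 2.10% of those 8934, a share that the rule itself fixes. Of the 245 replicate 1 intervals with 4 or more summits, 198 lay at a promoter, 10 of these had no overlap in replicate 2, and 47 lay away from promoters. The interval with the most summits of all, 10 over 2918 bp on chromosome 2, was 7681 bp from the nearest TSS and is therefore not a member.

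Chromatin was profiled by ATAC-seq, an assay that cuts and tags accessible DNA with the Tn5 transposase. Each of the 2 libraries, labelled biological replicates 1 and 2, was made from 50000 primary cells of this type, taken from male C57BL/6J mice of 5 to 6 weeks. The series holds this 1 group, with no treatment and no comparison group, and the labels give both libraries the same donor identifier, so separate animals are not documented. Of 24 transcription factor genes of blood stem cells, 14 had a shared promoter interval, Runx1, Gata2, Lyl1 and Meis1 among them. Tal1, Erg, Fli1, Mecom, Gfi1, Myb, Ldb1, Hoxa9, Prdm16 and Bcl11a had none. Of 32 marker genes of mature blood cells, 5 had one (Pax5, Cd3d, Pf4, Itga2b and Gp9), and of all 21911 protein-coding genes 9174 did.

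An active promoter usually carries a stretch free of nucleosomes just upstream of the TSS, flanked by well-placed nucleosomes, and Tn5 inserts mostly into the free stretch and into the linkers between nucleosomes. Most mammalian promoters of widely used genes lie in CpG islands, where the CpG dinucleotide, depleted from the rest of the genome through methylation and mutation, has been retained. A summit is the point of highest signal that a peak caller assigns within an interval, and an interval listed with several summits has several local maxima. The signal value of a summit is the authors' own and is used here to rank and describe summits within a list; values of the 2 lists are set side by side without a common scale.

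To show how far the members differ in sequence, 5 stretches of the GRCm38 (mm10) reference of RefSeq are printed on the plus strand, 5′ to 3′, with every CpG in capitals. The stretches leave out annotated UTRs and hold up to 300 bases of the interval. Those of Extl2 and Gulp1, the members with the most summits in replicate 1, are the UTR-free windows nearest to the strongest summit, at chr3:116006682-116006981 and chr1:44551253-44551510. That of Rgs10, the member with the lowest CpG ratio, lies at its strongest summit at chr7:128392346-128392645. That of Fancf, the member with the highest, is its UTR-free window with most CpGs, at chr7:51861682-51861981. Ahsa2, at chr11:23498031-23498330, has the 1-summit promoter interval with the CpG ratio nearest to the median of its class.
Extl2: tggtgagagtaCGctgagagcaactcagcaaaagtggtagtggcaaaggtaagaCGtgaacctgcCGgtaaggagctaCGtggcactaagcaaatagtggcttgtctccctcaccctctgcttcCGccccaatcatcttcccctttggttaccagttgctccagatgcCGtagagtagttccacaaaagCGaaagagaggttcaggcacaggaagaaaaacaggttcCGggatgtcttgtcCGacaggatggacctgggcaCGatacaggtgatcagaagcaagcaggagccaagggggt
Gulp1: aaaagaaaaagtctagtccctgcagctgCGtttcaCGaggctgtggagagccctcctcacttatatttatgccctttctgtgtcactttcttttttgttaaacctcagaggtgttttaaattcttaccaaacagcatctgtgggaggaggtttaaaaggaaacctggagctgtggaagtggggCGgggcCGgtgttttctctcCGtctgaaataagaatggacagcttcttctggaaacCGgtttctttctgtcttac
Rgs10: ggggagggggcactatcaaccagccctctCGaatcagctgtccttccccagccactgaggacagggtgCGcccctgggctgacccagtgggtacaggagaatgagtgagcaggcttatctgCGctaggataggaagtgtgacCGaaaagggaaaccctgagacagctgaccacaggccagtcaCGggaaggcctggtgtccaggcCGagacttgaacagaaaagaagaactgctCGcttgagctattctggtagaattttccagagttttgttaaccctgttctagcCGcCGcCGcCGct
Fancf: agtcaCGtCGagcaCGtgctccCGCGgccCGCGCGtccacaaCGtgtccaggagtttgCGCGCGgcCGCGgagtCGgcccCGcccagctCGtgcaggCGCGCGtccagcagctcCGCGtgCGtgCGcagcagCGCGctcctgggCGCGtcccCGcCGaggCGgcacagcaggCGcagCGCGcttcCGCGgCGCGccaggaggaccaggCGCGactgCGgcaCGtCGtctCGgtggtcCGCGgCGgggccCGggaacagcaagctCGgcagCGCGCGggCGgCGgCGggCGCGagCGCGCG
Ahsa2: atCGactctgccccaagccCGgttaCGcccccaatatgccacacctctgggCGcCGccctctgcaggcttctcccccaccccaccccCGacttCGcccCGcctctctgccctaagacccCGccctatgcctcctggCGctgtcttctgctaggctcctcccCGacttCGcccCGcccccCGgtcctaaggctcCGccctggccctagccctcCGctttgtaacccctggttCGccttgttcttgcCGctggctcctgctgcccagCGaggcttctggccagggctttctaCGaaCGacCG
The printed stretches hold 10 CpGs at Extl2, 6 in the shorter stretch at Gulp1, 11 at Rgs10, 60 at Fancf and 22 at Ahsa2. In replicate 1, intervals with 4 or more summits thus lay both over CpG-poor and over CpG-dense DNA. Fancf, however, had 1 summit in replicate 2. The stretches of Fancf and Gulp1 do not hold the strongest summit, and that of Rgs10 lies at a strongest summit in an intron.

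By the number of summits in replicate 1, the 8934 shared promoter intervals comprised 4924 with 1 summit, 2945 with 2, 877 with 3, 165 with 4, 20 with 5, 1 with 6 and 2 with 7. Just inside the threshold, the 165 intervals with exactly 4 summits had a median width of 1107 bp, and just outside it the 877 with 3 summits had 905 bp. Width in replicate 1 grew with each added summit, from a median of 463 bp with 1 summit to 690 bp with 2 and 1337 bp with 5 or more. The members ranged from 804 to 1751 bp (median 1123 bp), whereas the widest 1-summit interval measured 1095 bp. The strength of the strongest summit did not follow the number of summits: its median signal was 9.79 with 1 summit, 10.2 with 2, 10.2 with 3, 9.67 with 4 and 9.66 with 5 or more. Within a member the summits were unequal, the strongest having a median of 3.05 times the signal of the weakest (range 1.09 to 8.25). In 133 of the 188 members the strongest summit was neither the first nor the last. This held for 114 of the 165 members with 4 summits (69.1%), where 2 of the 4 positions are inner ones.

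Replicate 2, whose summits the rule did not use, gave 4 or more summits at 84 of the 188 members (44.7%, 95% Wilson interval 37.8 to 51.8%, which covers the counting of regions only). Over all 8934 shared promoter intervals the same share was 2.72%. It was 0.548% for 1-summit intervals and 8.21% for those with 3 summits. Replicate 2 gave 3 summits at 59 members, 2 at 37 and 1 at 8. The agreement was therefore partial: 143 members (76.1%) had at least 3 summits in replicate 2 and 74 had at least as many as in replicate 1. Where several replicate 2 intervals overlapped a member, as at 9 of them, the one with most summits was counted.

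**Figure D1:**
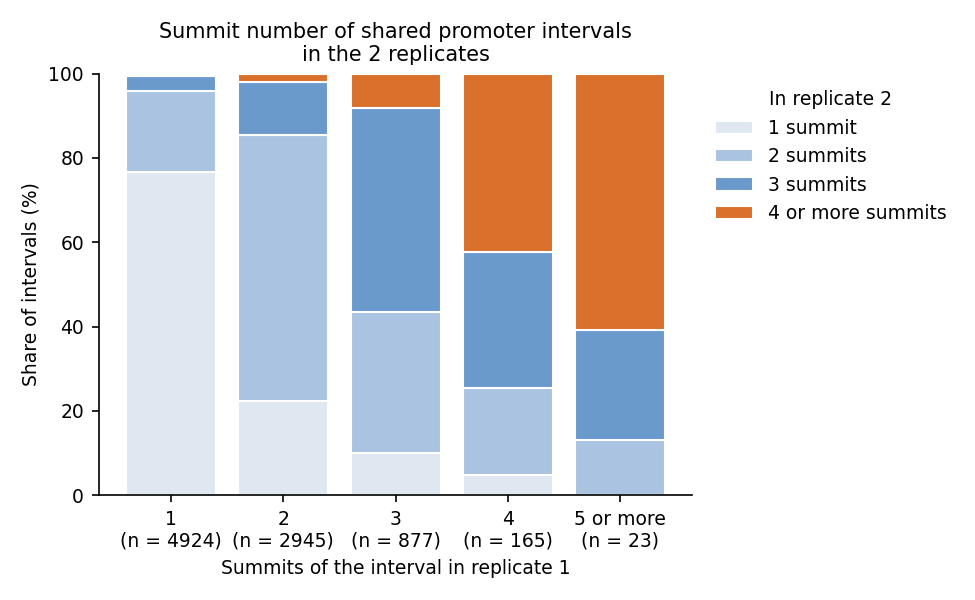
Shared promoter intervals by their number of summits in replicate 1 (horizontal axis, with the number of intervals) and the share of each class, in percent, with 1, 2, 3 or 4 and more summits in replicate 2 (stacked colours). The share with 4 or more summits in replicate 2 (orange) is 0.548% in the class with 1 summit, 8.21% with 3, and 44.7% over the members of the last 2 bars together.

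The members remained wide in replicate 2, with a median of 1041 bp (quartiles 856 and 1194 bp) against 514 bp (401 and 646 bp) for 1-summit intervals and 616 bp for all shared promoter intervals. The share with 4 or more summits in replicate 2 also differed between classes within bands of width. Width still rose with class inside a band, with replicate 1 medians at 800 to 999 bp of 852, 865, 888 and 933 bp for 1, 2 and 3 summits and members. The part of width was therefore not tested. Among replicate 1 intervals of 1000 to 1199 bp, replicate 2 had 4 or more summits at 37 of 88 members (42.0%, 32.3 to 52.5%), at 31 of 217 intervals with 3 summits (14.3%, 10.3 to 19.6%) and at 4 of 103 with 2 (3.88%, 1.52 to 9.56%). In the band of 800 to 999 bp the shares were 12 of 31 members (38.7%), 24 of 415 (5.78%) and 18 of 623 (2.89%), and 0 of 99 intervals with 1 summit, a count that allows up to 3.74% by the Wilson bound.

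Single summits were placed alike in both libraries where they were strong. The strongest summit of a member lay within 50 bp of a replicate 2 summit in 178 of 188 members (94.7%), close to the share for the summits of 1-summit intervals (94.6%). The weakest summit of a member was matched in 89 of 188 (47.3%). Replicate 2 summits at these places lay a median of 272 bp apart, so some matches arise by position alone. That share was not computed. Over all 780 summits of the members, 72.9% were matched, and in 56 members every summit was, among them Gulp1, Ccdc9, Zfp369, Crem and Hist1h1c. At 11 members 1 summit was matched and at none was there no match.

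Gulp1, which encodes an adaptor for the engulfment of dying cells, had the closest match of the members with 7 summits. In replicate 1 its summits stood at -159, 112, 387, 520, 796, 983 and 1225 bp from the most 5′ TSS. In replicate 2 they stood at -182, 114, 406, 562, 773, 1003 and 1224 bp. Both libraries thus placed 1 summit before and 6 after the start, and in both the summit near 112 bp was the strongest, with a signal of 10.01 in replicate 1 and 10.08 in replicate 2. The interval, chr1:44551253-44552829, was 1577 bp wide in replicate 1 and 1571 bp in replicate 2, and its strongest summit lay in an annotated UTR.

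Extl2, a glycosyltransferase gene, shares its interval (chr3:116006682-116008432, 1751 bp, the widest member) with Slc30a7, a zinc transporter gene that starts on the other strand. The 7 summits of replicate 1 had signals of 7.19, 3.34, 2.97, 3.44, 4.97, 3.03 and 6.10 from left to right. Replicate 2 divided the same DNA into an interval of 447 bp with 1 summit and one of 1278 bp with 4. The 2 replicate 1 summits without a partner there were the second and the third.

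Nasp, a histone chaperone gene, had 6 summits over 1466 bp in replicate 1 and differed most between the libraries among the first 3 members. Replicate 1 had summits at -80, 168, 389, 612, 894 and 1121 bp from the TSS, with signals of 9.70, 3.60, 6.29, 3.38, 3.64 and 5.90. Replicate 2 had an interval of 581 bp with summits at -73 and 140 bp only. The 4 summits from 389 bp onwards were therefore listed in 1 library alone.

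Neighbouring summits of the members mostly lay 200 to 350 bp apart. How the peak caller separated neighbouring summits was not given in the sources used here, so its part in these distances was not tested. The 592 distances had a median of 267.5 bp (quartiles 230 and 314 bp), and 423 of them (71.5%) fell between 200 and 350 bp. In replicate 2 the 424 distances at the same places had a median of 272 bp (quartiles 233 and 324 bp), with 72.6% between 200 and 350 bp. Replicate 2 promoter intervals with 4 or more summits, picked without replicate 1, had a median of 258 bp over 726 distances. Spacing narrowed slightly as summits were added: 295 bp with 2 summits, 282.5 bp with 3, 271 bp with 4 and 252 bp with 5 or more. Distances over 400 bp made up 6.08% in the members and 15.04% in 2-summit intervals. Added summits thus came with added width more than with closer packing, and the shortest distance in any member was 77 bp. Within a member, the standard deviation of the distances was a median of 0.178 times their mean.

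**Figure D2:**
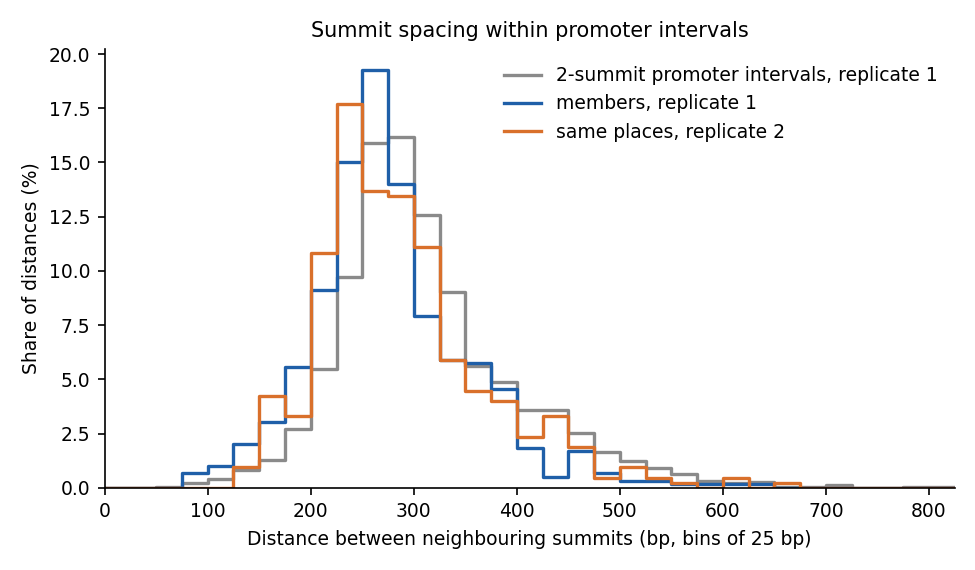
Distances between neighbouring summits in bins of 25 bp (horizontal axis, bp) as a share of all distances of a set (vertical axis, percent): members in replicate 1 (blue, 592 distances), the same places in replicate 2 (orange, 424) and 2-summit promoter intervals (grey, 2945). All 3 curves have 1 broad hump, with medians of 267.5, 272 and 295 bp.

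For position against the gene, 144 members whose TSSs within reach were all on 1 strand were turned to run 5′ to 3′ and set at the most 5′ of those TSSs. Their intervals reached from a median of -414 bp upstream to 670 bp downstream in replicate 1, and from -404 to 580.5 bp in replicate 2. The 4444 intervals with 1 summit on 1 strand reached from -249 to 203 bp. In replicate 1, 104 of the 144 members (72.2%) extended further downstream than upstream, as did 97 in replicate 2. The replicate 1 share was 60.6% for intervals with 3 summits, 57.7% with 2 and 41.2% with 1. Setting each member at its most 5′ TSS places spread-out TSSs downstream, and the tendency was weaker in the 63 members whose TSSs lay within 100 bp of each other: 41 extended further downstream in replicate 1 and 39 in replicate 2, with median edges of -443 and 578 bp in replicate 1. Of the summits of these 63, 50.8% lay downstream in replicate 1 and 49.5% in replicate 2, against 58.0% and 55.1% for all 144. By annotation, 35.0% of the 780 member summits were in introns, 22.1% in UTRs, 7.05% in coding exons, 3.59% in other exons and 32.3% outside protein-coding genes, whereas 50.9% of summits in 1-summit intervals were outside genes. The strongest summits of the members were outside genes in 49.5% of cases.

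The strongest summit of the members stood at a median of -16 bp from the TSS in replicate 1 and -10.5 bp in replicate 2, and it lay within the 100 bp upstream of the TSS in 56 and 54 of the 144. For 1-summit intervals the median was -36 bp, and 41.0% lay in those 100 bp against 38.9% of the members in replicate 1. The upper quartile was 246.75 bp in members and 38 bp in 1-summit intervals. In the 63 members whose TSSs lay within 100 bp of each other it was only 3.5 bp in replicate 1 and 42.5 bp in replicate 2. The upper quartile thus lay nearer the TSS in this subset, although single members with 1 annotated TSS, such as Hist1h1c, had a distant strongest summit. The part of the TSS choice was not tested. In the members' 597 replicate 1 summits, the 100 bp before the TSS held 13.4%, the window of 100 to 200 bp after it 3.85%, and that of 200 to 300 bp 10.9%. The 481 summits of replicate 2 at the same members gave 14.97%, 3.95% and 10.8%. Upstream, the window from -200 to -100 bp held 4.36% and that from -300 to -200 bp 6.20% in replicate 1, with 5.20% and 6.65% in replicate 2. The rise, dip and second rise were more distinct in the 63 members with close TSSs, a subset chosen after the profile was seen: 16.4%, 3.13% and 12.9% in replicate 1 and 17.96%, 1.94% and 13.1% in replicate 2. Intervals with 2 and 3 summits had the second rise too, with 13.4% and 13.5% of their summits at 200 to 300 bp, so that it was not particular to the members. Since neighbouring summits mostly lay 200 to 350 bp apart, the dip and second rise are not independent of the spacing. The part of the spacing was not tested. Since the rule asks for a summit within 1000 bp of a TSS, the outer limits of these positions are partly set by it.

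**Figure D3:**
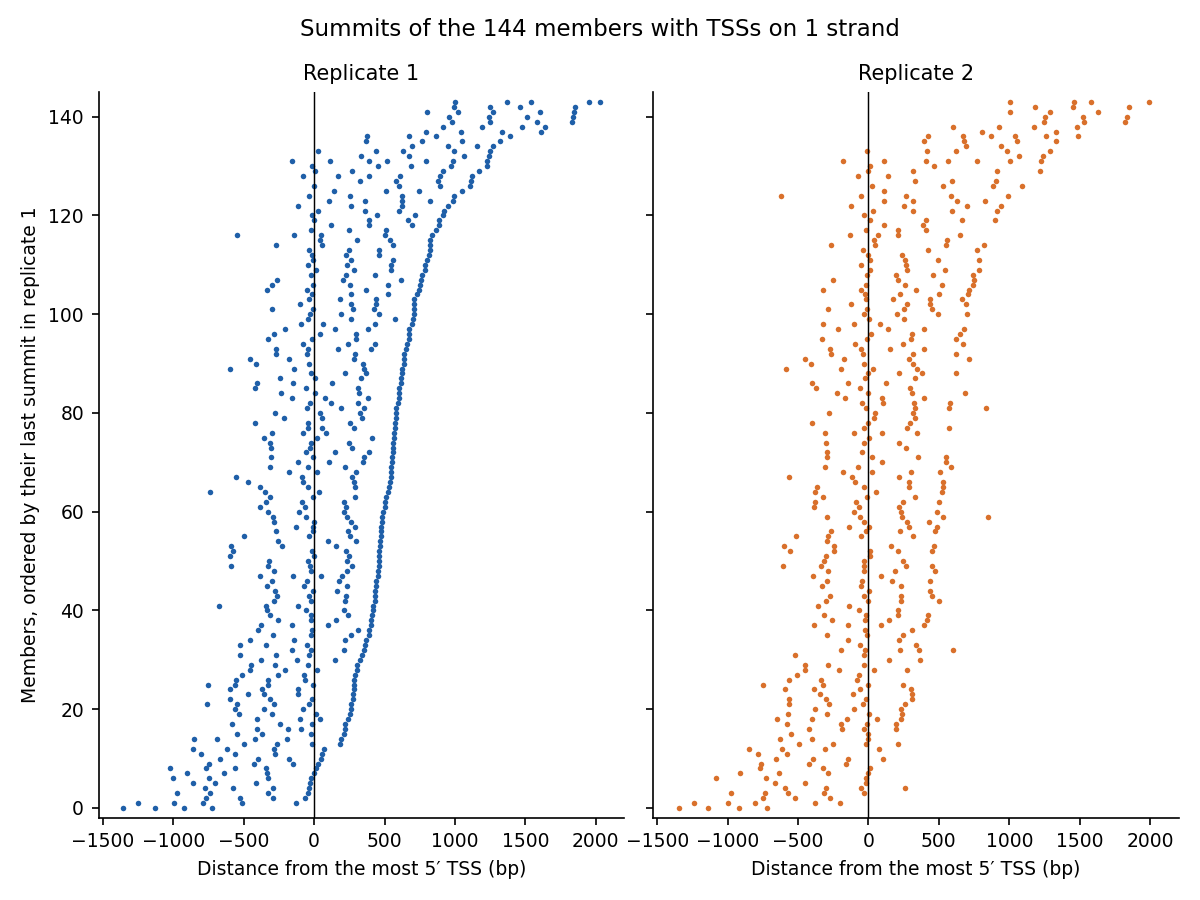
Every summit of the 144 members with TSSs on 1 strand, in replicate 1 (left, 597 summits) and replicate 2 (right, 481), by distance from the most 5′ TSS (horizontal axis, bp; negative is upstream). Each row is a member, ordered by its last replicate 1 summit; columns of points stand just before the TSS and again 200 to 300 bp after it in both panels.

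**Figure D4:**
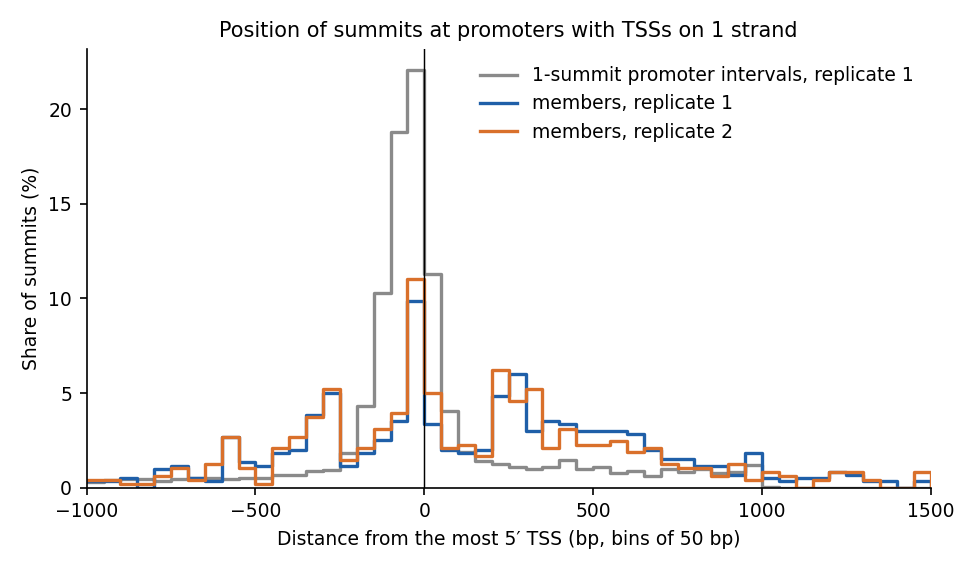
Share of summits (vertical axis, percent) by distance from the most 5′ TSS in bins of 50 bp: members in replicate 1 (blue), the same members in replicate 2 (orange) and 1-summit promoter intervals in replicate 1 (grey). The grey curve has 1 peak at the TSS, while the members have a lower peak there, few summits at 100 to 200 bp and a second rise at 200 to 300 bp.

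The 188 members lay within reach of the TSSs of 234 genes, 141 with 1 gene and 47 with 2. TSSs of both strands were within reach at 44 members (23.4%, 17.9 to 30.0%), against 9.75% of 1-summit intervals (8.95 to 10.6%), 17.3% of those with 3 summits and 12.1% of all shared promoter intervals. At 39 members the genes were head to head, with starts that point away from each other. Counting only TSSs within 1000 bp of the strongest summit, which gives each interval 1 window, the share was 22.9% for members and 9.75% for 1-summit intervals. At a width of 1000 to 1199 bp it was 25% for 88 members, 17.5% for 217 intervals with 3 summits and 21.4% for 103 with 2, and at 800 to 999 bp it was 19.4% for 31 members and 16.2% for 99 intervals with 1 summit. Other wide intervals thus had much of the higher share. When replicate 2 chose the intervals instead, 16.5% of 224 had both strands, against 8.89% of its 1-summit intervals and 18.2% of those with 3.

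Among the head-to-head members, Ints12, a subunit of the Integrator complex, and Gstcd share 1519 bp with 5 summits in replicate 1 and 3 in replicate 2. Serpini1, a serine protease inhibitor gene, and Pdcd10 share 1337 bp with 5 and 3 summits. Ddx5, an RNA helicase gene, and Cep95, a centrosome gene, share 1207 bp with 4 summits in each library.

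Among the other members with 5 summits in replicate 1 were genes of metabolism. Ldha, the lactate dehydrogenase subunit of glycolysis, had an interval of 1654 bp on chromosome 7, but 2 summits in replicate 2. Gk, the glycerol kinase gene on the X chromosome, had 1580 bp and 4 summits in replicate 2. Slc27a1, a fatty acid transporter gene, had 1320 bp and 3 summits in replicate 2, and its strongest summit lay in a coding exon. Setd5, a chromatin regulator gene, had 1556 bp and 5 summits in both libraries with a strongest signal of only 5.89 and 5.81. Sec23b, of the COPII vesicle coat, had 1265 bp, 4 summits in replicate 2 and signals of 15.5 and 15.9. These genes show that broad intervals held both weak and strong summits.

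Others of the first 15 members were Ccdc9, with 5 summits in both libraries, Crlf2, the receptor chain for thymic stromal lymphopoietin, with 5 and 4, Zfp78, with 5 and 3, and Prdm10, a zinc finger gene, with 5 and 4. Hspa4l, a heat shock protein gene, had 4 summits in replicate 1 and 6 in replicate 2, the most there after Gulp1. Zfp369 had 5 in each, and 7 members went from 4 to 5, Crem, Prkx, Cyp7b1, Ephb6, AW554918, Syncrip and Ggh. At the other end, 8 members had a single summit in replicate 2. Of these, Trim16 shrank from 1354 to 565 bp, Cabcoco1 from 1247 to 397 bp, Ctps, the CTP synthase gene, from 1232 to 319 bp, and Fancf, of the Fanconi anaemia DNA repair complex, from 1224 to 712 bp. Sat1, a polyamine acetyltransferase gene on the X chromosome, stayed wide, at 1332 and 922 bp. The strongest signals at these 5 were 16.11 in replicate 1 and 16.02 in replicate 2 at Fancf, 14.4 and 13.7 at Cabcoco1, 11.7 and 12.4 at Sat1, 6.76 and 6.95 at Trim16, and 9.97 and 7.72 at Ctps. The main summit was thus listed in both libraries, and the other summits were absent from the replicate 2 list.

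Of the 9174 protein-coding genes with a shared promoter interval, 2.55% had a member. None of the 14 such transcription factor genes of blood stem cells did, 9 of them having a 1-summit interval, and neither did any of 28 cell cycle and replication genes, 28 respiratory chain genes or 5 markers of mature blood cells. At the background share, lists of this size would hold few members or none, so these zeros are not results about the lists. Among splicing and RNA-binding genes, 3 of 34 had a member: Ddx5, Pnisr, with 4 summits in both libraries, and the splicing factor gene Srsf7, with 4 and 2. Among chromatin regulators, 2 of 25 did, Setd5 and the histone deacetylase gene Hdac2, which had 4 summits in both libraries. Of the chromatin regulators 8 of 25 (32%) had a 1-summit interval, against 54.9% of all genes with a shared promoter interval. This was the lowest share of the lists. The others with such intervals ran from 43.75% in ribosomal protein genes to 68.75% in histone cluster genes, so it is given as a description.

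The lists are partial, and members outside them include Rps29, a ribosomal protein gene with 4 summits in both libraries, and Ndufb11, a respiratory chain gene next to Rbm10. Another was Nr4a2, an early response gene whose only replicate 2 summit lay at -296 bp from the most 5′ TSS. Listed ribosomal protein genes gave 2 of 32, Rpl4, with 4 and 2 summits, and Rpl7, with 4 and 3, both head to head with a neighbour (Zwilch and Rdh10). Histone cluster genes gave 2 of 48, the linker histone gene Hist1h1c, with 4 summits in both libraries over 1470 bp, and Hist4h4, with 4 and 3. Of 21 listed early response genes 1 was found, Dusp1, a MAP kinase phosphatase gene, with 5 summits over 995 bp in replicate 1 and 2 in replicate 2. The list of developmental regulators of other tissues had no gene with a shared promoter interval among its 30. Each list described has at most 3 genes in members, so their shares cannot be told from the background.

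CpG content was compared as the observed to expected ratio, the number of CpGs times the length over the product of the numbers of C and of G. Over the whole interval the median was 0.703 in members (quartiles 0.609 and 0.814) and 0.754 in 1-summit intervals (0.578 and 0.871), a difference of -0.0514 that is small beside the spread between regions. Classes fell in order, with 0.743 at 2 summits, 0.727 at 3, 0.705 at 4 and 0.690 at 5 or more. In the 200 bp at the strongest summit the members had 0.789 and 1-summit intervals 0.769, and in the 500 bp at the middle of the interval 0.761 and 0.754, so that the direction turned. It also turned with the less strict lists of each replicate (0.00998) and with the list made from both libraries (0.00677). The lower CpG ratio of many-summit promoters thus held for whole intervals of the main lists and depended on the window and the list.

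Because members are wider, they held more CpGs in all, with a median of 69.5 against 32 in 1-summit intervals, at a lower density of 6.03 against 7.09 per 100 bp and a GC content of 59.0% against 61.6%. At a width of 800 to 999 bp the median ratios were 0.780 for 99 intervals with 1 summit, 0.758 for 623 with 2, 0.745 for 415 with 3 and 0.719 for 31 members. In this band the members were lower at the centre too, with 0.750 against 0.818 for 1 summit in the middle 500 bp and 0.7996 against 0.837 in the 200 bp at the strongest summit. At 1000 to 1199 bp the whole-interval ratios were 0.728, 0.726 and 0.715 for 2 summits, 3 summits and members, and the 5 intervals with 1 summit had 0.689, below the members. At the centre the 88 members of this wider band were not lower. Their middle 500 bp had 0.783, against 0.777 for 2 summits, 0.763 for 3 and 0.642 for 1. Their 200 bp at the strongest summit had 0.796, against 0.760, 0.754 and 0.794. Ratios under 0.5 were found in 28 members (14.9%, 10.5 to 20.7%) and in 19.3% of 1-summit intervals (18.2 to 20.4%).

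CpG ratios of the members ran from 0.243 to 1.08, and those of all shared promoter intervals from 0 to 1.29. The lowest of the members was that of Rgs10, a regulator of G protein signalling, at 0.243, with 4 summits in both libraries over 1199 bp. Fancf had the highest, at 1.08. Of the members named from the gene lists, Hist1h1c had a ratio of 0.694, Dusp1 of 0.906, Ddx5 of 0.938 and Srsf7 of 0.945. The 2 members with 7 summits lay lower, with Extl2 at 0.608 and Gulp1 at 0.544, but Nasp, with 6 summits, had 0.731.

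**Figure D5:**
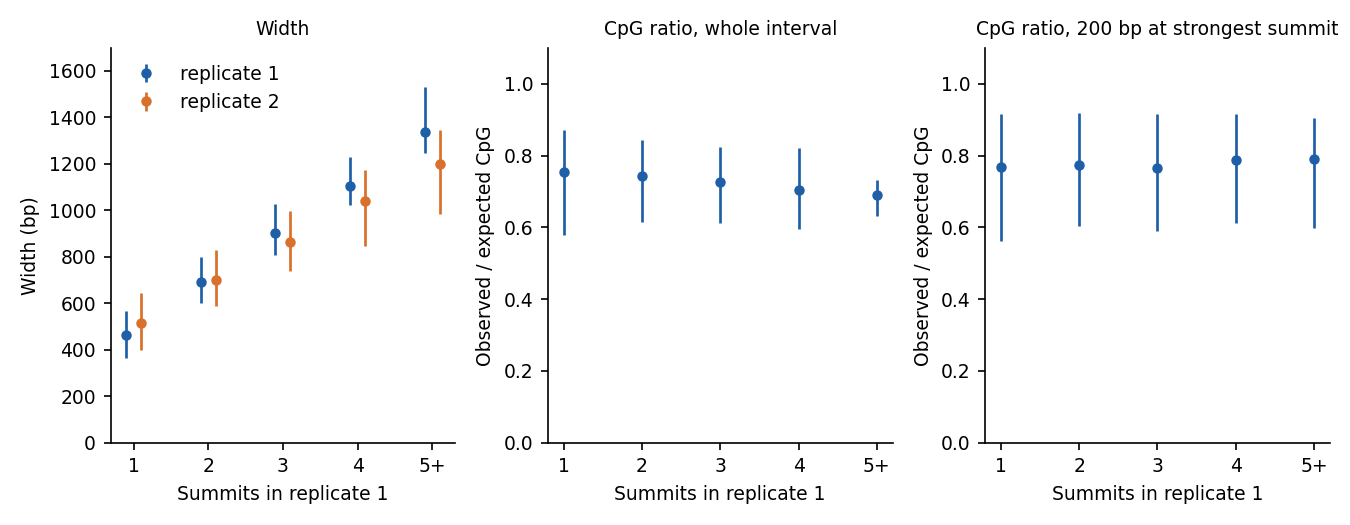
Width in both replicates (left, bp), observed to expected CpG ratio of the whole interval (middle) and of the 200 bp at the strongest summit (right) by number of summits in replicate 1; points are medians and bars the quartiles. Width rises from 463 to 1337 bp in replicate 1, the whole-interval ratio falls from 0.754 to 0.690, and the ratio at the summit shows no fall (0.769 to 0.791).

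Short factor motifs were counted on both strands as exact letters, as a description only. At the strongest summit, in windows of 200 bp, the members and the 1-summit intervals had similar shares. The ETS motif CCGGAAG was in 17.0% of members, 15.6% of 1-summit intervals and 16.5% of all shared promoter intervals. The SP and KLF motif GGGCGG was in 58.5%, 58.2% and 58.5%. The NFY motif CCAAT was in 32.4%, 38.7% and 37.5%, and the RUNX motif TGTGGT in 7.45%, 10.5% and 9.97%. The cAMP response element TGACGTCA was in 10 members (5.32%) against 3.01% of 1-summit intervals and 3.43% of all. Over whole intervals, which are longer in members, 45.2% of members and 22.2% of 1-summit intervals held the ETS motif, and 42.02% and 21% the RUNX motif. The motif CTCGCGAG, of ZBTB33 and like factors, was in 2.13% of members and 2.58% of 1-summit intervals, so that not every motif was more frequent in members; the part of length was not tested.

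Reads from repeated DNA can be placed at more than 1 locus, and the central 31 bases of a summit occurred more than once in the genome at 12 members (6.38%) and 57 1-summit intervals (1.16%). At the strongest summit alone the shares were 3.72% (7 of 188) and 1.16%. The 12 were Fcgr3, A630089N07Rik, Hist1h1c, Rbm10, Zfp874b, Rps29, 2610044O15Rik8, Srp54a, Srp54b, Alg2, AW146154 and 3300002I08Rik, and their summits may hold reads of near-identical copies. The part of such copies in the number of summits was not tested. Soft-masked repeats covered a median of 5.77% of a member and 4.62% of a 1-summit interval.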

How the data were processed

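ATAC-seq of 2 libraries of hematopoietic stem cells was analysed from peak lists in the mm10 assembly, per the labels. Each deposited line holds an interval, a summit and the signal value that the authors' peak caller gave it; the deposited −log10 p and q columns were not used. The IDR-thresholded list keeps peaks whose ranks were reproducible (irreproducible discovery rate). Per the deposited file notes the list of a replicate derives from that library alone. The aligner, the peak caller with its summit settings, and the Tn5 offset were not given in the sources used here. No read counts were used, so depth is unknown and no interval covers it; 95% Wilson intervals cover the counting of regions only.

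Lines with the same start and end were joined into 1 interval. TSSs of every transcript of protein-coding genes came from GENCODE M21, and sequence from RefSeq GRCm38.p6. Orientation used the most 5′ TSS within reach of a summit. Matching used 50 bp, repeated sequence 31 bases. With 1 group of 2 samples no test between groups exists, and regions are not replicates, so results are counts, medians and quartiles. Functions were checked on simulated intervals. Members, the 11 gene lists and the 12 motifs were chosen with earlier results of these data known. Named genes were the first 15 members by summit number and width, members in a list, and the 5 widest and the 5 with most and with fewest replicate 2 summits; other genes were chosen after their values were seen, and results for some named genes and 1 list are not reported here. Alternatives varied overlap, promoter window, line number, TSS set, list, choosing replicate, sequence window, width, signal and close summits. Python 3.11.15, pandas 2.3.3, numpy 2.4.6, scipy 1.17.1 and pysam 0.24.0 were used.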

Additional observations from a re-analysis of the deposited data

How the results depend on the processing

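With 3 or more and with 5 or more summit lines, respectively, the count of intervals became 1065 and 23, the median spacing 278 and 252 bp, the width in the other replicate 885 and 1198 bp, the CpG difference -0.0328 and -0.0646, and the share with 4 or more summits in replicate 2 14.6% and 60.9%. With replicate 2 choosing, spacing was 260 bp, width in the other replicate 1006.5 bp, the CpG difference -0.0382, the share with 4 or more summits in the other replicate 37.5% and the share with TSSs of both strands 16.5%. The list made from both libraries gave 593 intervals. Replicate 1 intervals above the median signal of their whole list gave 124. The CpG difference was the least stable result: it turned to 0.00998 with the less strict lists, 0.00677 with the list from both libraries, 0.00654 in the middle 500 bp and 0.0198 in the 200 bp at the strongest summit. It was -0.0666 and -0.0291 with promoter windows of 500 and 2000 bp. With TSSs of coding transcripts it was -0.0644, and with the most 5′ TSS of each gene -0.0733. Against the 7 widest 1-summit intervals it was -0.0703. Among intervals of both classes above the median signal of the shared promoter intervals it was -0.117. The cause of these changes was not tested. Leaving out 1 replicate gave 198 and 231 intervals, a spacing of 258 to 266 bp, a CpG difference of -0.0411 to -0.0255 and a both-strand share of 16.9 to 22.2%. Reciprocal overlap of 50% changed no result by more than the spread used here. That spread was, for medians, the standard deviation of the values from the 2 choosing replicates. For shares it was the 95% Wilson interval and for counts 1.5 times. No paired analysis was possible because the series has 1 group. Without read counts, whether a summit missing from replicate 2 fell under its threshold for lack of depth cannot be told apart from its absence.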

Other observations

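A group of genes not in any list stood out by name after the values were seen: genes whose symbol starts with Zfp, zinc finger genes by name, were nearest to 13 of the 188 members (6.91%, 95% Wilson interval 4.09 to 11.5%). Such genes were nearest to 3.02% of all shared promoter intervals, 5.93% of those with 3 summits and 2.01% of those with 1 summit. The 13 were Zfp78, Zfp369, Zfp788, Zfp189, Zfp672, Zfp874b, Zfp658, Zfp46, Zfp763, Zfp341, Zfp677, Zfp74 and Zfp874a. Their median CpG ratio was 0.618, against 0.705 in the other members, and 5 of the 13 had a ratio under 0.5, as had 23 of the 175 others. The 1-summit intervals nearest to such genes were lower too, at 0.696 against 0.755, so that this was not particular to the members. Their strongest summits had a median signal of 11.3 in replicate 1 and 12.4 in replicate 2, against 9.58 and 9.59 in the other members. Their median width was 1079 bp, and a repeated 31-mer was found at 1 of them, Zfp874b. The group was picked for its frequency, so its share is a description.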
